A study of Bubalus bubalis with 12 samples.

Results

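The 9 genes described here handle carotenoids, retinoids and tocopherols, the plant pigments and fat-soluble vitamins A and E. They were picked by symbol from the 34037 genes of a ruminal wall expression table: SCARB1 (NCBI gene identifier 102410016), CD36 (102392583), BCO1 (102398086), BCO2 (102400372), LRAT (102389350), RDH10 (102390172), ALDH1A1 (102397240), CRABP2 (102406669) and TTPA (102415886). Each symbol was found once. The ruminal wall came from 12 Italian Mediterranean dairy buffaloes (Bubalus bubalis). The control group of 6 animals ate a total mixed ration (TMR), and the treated group of 6 animals ate TMR with ryegrass green feed as 30% of the diet. Each animal gave 1 stranded total RNA library. Fresh ryegrass carries carotenoids and vitamin E, and the comparison asks whether the genes that take up, cleave, activate and carry these compounds differed between the diets. The rations also differed in other components. By the study's methods, a vitamin supplement was part of the control ration but not of the treated one, and the control ration held more alfalfa hay, so these differences and the ryegrass cannot be told apart.

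Dietary carotenoids enter cells through scavenger receptors of the plasma membrane. Inside the cell BCO1 cleaves beta-carotene in the middle of the molecule to give retinal, while BCO2, in mitochondria, cuts carotenoids off centre. Retinol and retinal are interconverted by dehydrogenases and reductases, retinol is stored as esters, and retinal is oxidised to retinoic acid, which acts on nuclear receptors. The rumen is lined by a keratinised stratified epithelium, the kind of tissue in which vitamin A is known to restrain keratinisation, and in mammals carotenoids and fat-soluble vitamins are absorbed chiefly in the small intestine.

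Levels are given in FPKM, which divides the fragments of a gene by its length and by the library size of the animal, so that genes can be compared with each other. The counted fragments of the animals lay between 10531541 and 12948372 (medians 12414349 for control and 12031597.5 for treated animals), and the reads that stand behind each value were worked out from the steps of the table. Genes with enough reads in at least 1 animal were tested, and these were 12642. Among the 9 genes, SCARB1, CD36, BCO2, RDH10, ALDH1A1 and TTPA passed this filter, while BCO1, LRAT and CRABP2 did not and are given from a fit on all 22972 genes above 0. The tissue label was checked against cell type markers. Of 10 ruminal epithelium markers found, 8 had a mean above 1 FPKM, and their summed level was between 3232 and 6646 FPKM for control and between 3895 and 7076 FPKM for treated animals. The keratin KRT4 and the cornified envelope gene LOR were near 0. The 8 smooth muscle markers summed to between 14.6 and 33.8 FPKM for control and between 5.47 and 26.8 FPKM for treated animals (exact permutation p = 0.0736 for their score, the mean of the standardised log2 levels), with DES and CNN1 lower in the treated group at nominal p-values of 0.0271 and 0.0183 (limma). The study itself listed DES and MYH11, both in this list, as lower on these animals, so their direction is not independent evidence. CNN1 was low, with means of 1.17 and 0.399 FPKM in control and treated animals. The scores of the other 6 marker lists (ruminal epithelium, fibroblast, endothelium, adipocyte, macrophage and liver) had exact permutation p-values between 0.123 and 0.872. In bulk tissue, fewer cells of a type and less RNA per cell cannot be told apart.

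The 9 genes spanned a very wide range of levels, from a gene among the most abundant of the tissue to a gene with hardly any reads. ALDH1A1, which oxidises retinal to retinoic acid, had a mean of 476 FPKM over the 12 animals and ranked 165 among all genes by mean FPKM. BCO2 followed at 15.6 FPKM and RDH10, which oxidises retinol to retinal, at 9.64 FPKM. The uptake receptors SCARB1 and CD36 had means of 2.82 and 1.21 FPKM. TTPA, the alpha-tocopherol transfer protein known mainly from liver, had a mean of 0.942 FPKM, and CRABP2, which carries retinoic acid to the nucleus, a mean of 0.684 FPKM. LRAT, which esterifies retinol, stood at 0.234 FPKM and BCO1 at 0.0167 FPKM.

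By mean log2 level the order was ALDH1A1, BCO2, RDH10, SCARB1, CD36, CRABP2, TTPA, LRAT and BCO1, and neighbours in it were compared within animals by a two-sided exact sign-flip permutation test, adjusted over the 8 pairs. ALDH1A1 was 32.6 times BCO2 as a ratio of geometric means and was higher in 12 of 12 animals (adjusted exact p = 0.00130). BCO2 was 1.50 times RDH10 and was higher in 10 of 12 animals (adjusted exact p = 0.00846). The steps from RDH10 to SCARB1 (3.65 times), from SCARB1 to CD36 (2.45 times), from CD36 to CRABP2 (1.84 times) and from LRAT to BCO1 (11.7 times, on values with 0.01 FPKM added) also had adjusted exact p-values between 0.00130 and 0.00846. Between CRABP2 and TTPA (adjusted exact p = 0.657) and between TTPA and LRAT (adjusted exact p = 0.0737) no difference beyond the spread between animals was detected.

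**Figure D1:**
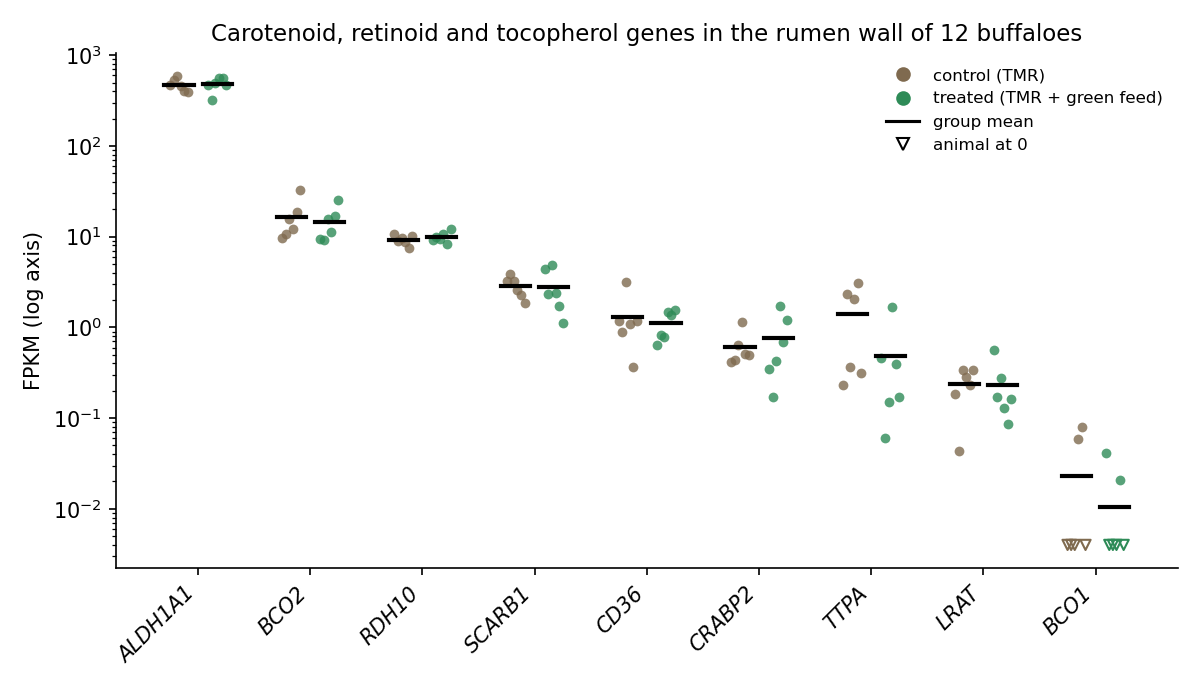
FPKM (log axis) of the 9 genes in each of the 12 animals, with control animals in brown, treated animals in green, group means as black bars and animals at 0 as open triangles. The genes run from ALDH1A1 near 476 FPKM down to BCO1, which was at 0 in 8 animals, and both diets overlapped for each gene.

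In limma with all animals and neither covariate nor block, none of the 9 genes differed between the diets at a nominal p-value below 0.05. The count was 0 of the 6 tested genes, beside 157 of all 12642 tested genes (1.24%), with 100 higher (0.791%) and 57 lower (0.451%) under green feed. For BCO1, LRAT and CRABP2 it was 0 of 3, beside 562 of the 22972 genes above 0 (2.45%). After Benjamini-Hochberg adjustment 0 genes passed in limma on either set, with a smallest adjusted p-value of 0.9997 over the tested genes. With voom on the worked-out reads, 0 of the tested genes passed adjustment, 144 had a nominal p-value below 0.05, and 0 of these were among the 9 genes. Of the 6 tested genes, 4 had a lower and 2 a higher mean log2 level in the treated group, and their median log2 fold change was -0.09 beside 0.0053 over all tested genes. The 6 control and 6 treated animals overlapped for all 9 genes. How often the groups overlapped over all tested genes was not counted, so this only describes the 9 genes.

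**Figure D2:**
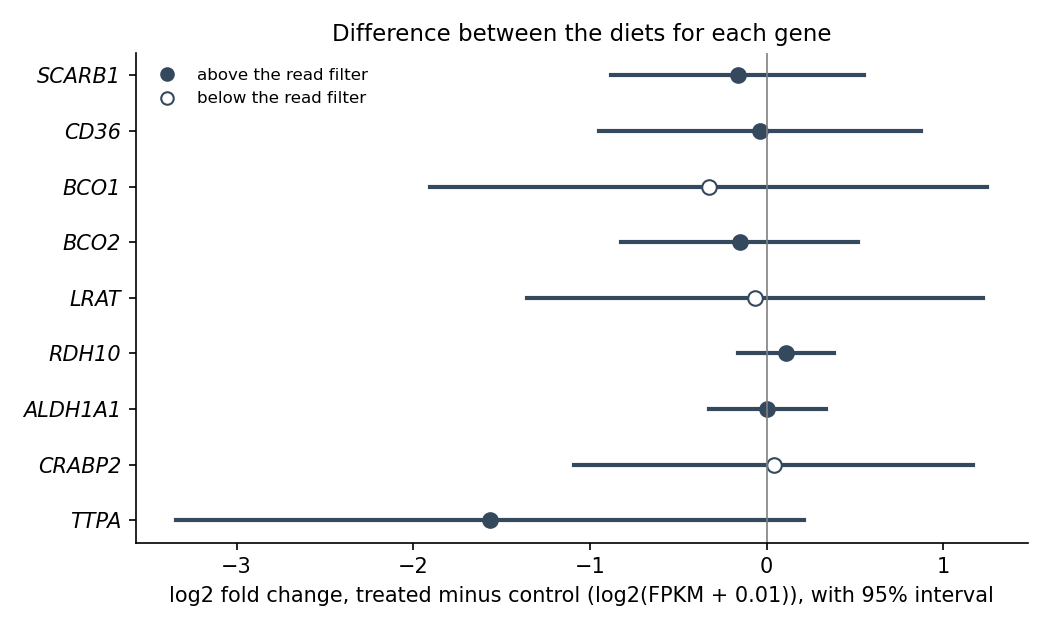
Log2 fold change of each gene, treated minus control on log2(FPKM + 0.01), with its 95% interval from limma. Filled points are the 6 genes above the read filter and open points the 3 below it. Each interval includes 0, and the intervals of RDH10 and ALDH1A1 are the narrowest while that of TTPA is the widest.

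SCARB1 encodes a receptor for high-density lipoprotein that also takes up carotenoids and vitamin E. In the control group it ranged from 1.87 to 3.83 FPKM with a median of 2.92, and in the treated group from 1.11 to 4.82 FPKM with a median of 2.36. The treated animals were thus both the lowest and the highest. The means were 2.85 ± 0.730 and 2.80 ± 1.50 FPKM (SD, n = 6), with a log2 fold change of -0.16 (SE 0.33, two-sided exact permutation p = 0.667). Without treated replicate 6, the lowest animal, the log2 fold change was 0.07.

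CD36 encodes a scavenger receptor for long-chain fatty acids that also binds carotenoids, and it is made by fat cells, macrophages and the lining of small blood vessels. Control animals ranged from 0.362 to 3.13 FPKM with a median of 1.13, and treated animals from 0.641 to 1.55 FPKM with a median of 1.10. Control replicate 3 alone lay above 2 FPKM, and all treated animals fell inside the control range. The means were 1.31 ± 0.946 and 1.11 ± 0.405 FPKM (SD, n = 6), and the log2 fold change was -0.04 (SE 0.42, exact permutation p = 0.931). Without control replicate 3 it was 0.27.

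BCO2 was by far the more abundant of the carotenoid oxygenases. It ranged from 9.77 to 32.8 FPKM in the control group (median 13.9) and from 9.24 to 25.6 FPKM in the treated group (median 13.4), on 262 to 814 reads per animal. The highest animal of each group was the one numbered 6, and the remaining animals of both groups lay between 9.24 and 18.7 FPKM. The means were 16.6 ± 8.61 and 14.6 ± 6.25 FPKM (SD, n = 6), and the log2 fold change was -0.15 (SE 0.31, exact permutation p = 0.671). Its 95% interval ran from -0.82 to 0.52, a fold between 0.566 and 1.43. Without control replicate 6 the log2 fold change was 0.07, and with a smooth muscle and fibroblast score as covariate it was 0.15.

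BCO1, the enzyme of vitamin A formation from beta-carotene, was close to undetected. It was at 0 in 8 of the 12 animals, and the other 4 had between 1 and 4 reads. The control group held 7 reads in all, in control replicates 4 and 5, and the treated group 3 reads, in treated replicates 1 and 5. Both lie around the floor of 3 reads per animal, which for this gene is worth up to 0.0702 FPKM, so no fold is given, and a difference between the diets was not detectable at this depth (exact permutation p = 0.697). ISX, the intestinal transcription factor that represses BCO1 and SCARB1, was listed at 0 in all 12 animals.

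LRAT had between 2 and 26 reads per animal. It ranged from 0.0433 to 0.343 FPKM in the control group (median 0.258) and from 0.0870 to 0.560 FPKM in the treated group (median 0.167). The treated group held both the highest animal and 2 of the lowest 3. The means were 0.237 ± 0.113 and 0.231 ± 0.173 FPKM (SD, n = 6), with a log2 fold change of -0.07 (SE 0.60, exact permutation p = 0.903).

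RDH10 was the steadiest of the 9 genes. Control animals ranged from 7.43 to 10.6 FPKM (median 9.34) and treated animals from 8.34 to 12.2 FPKM (median 9.72). The highest animal was 1.65 times the lowest, and 11.3% of the tested genes had a smaller spread within groups. The means were 9.26 ± 1.13 and 10.01 ± 1.36 FPKM (SD, n = 6), with a log2 fold change of 0.11 (SE 0.13, exact permutation p = 0.338) and a fold between 0.894 and 1.30 by the 95% interval.

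ALDH1A1 rested on 8203 to 16098 reads per animal, so that counting error was small beside the differences between animals. It ranged from 390 to 584 FPKM in the control group (median 465) and from 320 to 559 FPKM in the treated group (median 483). The lowest animal was treated replicate 2 and the highest control replicate 3. The means were 474 ± 75.7 and 478 ± 87.6 FPKM (SD, n = 6), and the log2 fold change was 0.0037 (SE 0.15, exact permutation p = 0.968). The 95% interval ran from -0.33 to 0.33, which bounds the fold between 0.797 and 1.26.

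CRABP2 had 2 to 20 reads per animal. Control animals ranged from 0.412 to 1.14 FPKM (median 0.499) and treated animals from 0.172 to 1.72 FPKM (median 0.565). As for SCARB1, the treated animals spanned the control animals on both sides. The means were 0.604 ± 0.275 and 0.764 ± 0.592 FPKM (SD, n = 6), with a log2 fold change of 0.04 (SE 0.53, exact permutation p = 0.931). Without treated replicate 4, the highest animal, it was -0.27.

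TTPA had the largest difference between the diets and the largest spread among the 9 genes. The levels were 0.232, 2.35, 0.365, 2.06, 3.08 and 0.311 FPKM in control replicates 1 to 6, and 0.456, 0.0604, 0.151, 1.66, 0.399 and 0.171 FPKM in treated replicates 1 to 6. Of the control animals, 3 thus stood above 2 FPKM and the other 3 below 0.4 FPKM, while in the treated group replicate 4 stood above 1.5 FPKM and the other 5 below 0.5 FPKM. The highest animal, with 104 reads, was 51.1 times the lowest, with 2 reads, and 98.5% of the tested genes had a smaller spread within groups. The means were 1.40 ± 1.25 and 0.483 ± 0.596 FPKM (SD, n = 6). The log2 fold change was -1.57 (SE 0.83, 95% interval -3.34 to 0.21, limma nominal p = 0.0796, exact permutation p = 0.117), and the groups overlapped.

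The nominal p for TTPA crossed the threshold on leaving out some single animals. With all animals it did so with a covariate and with a replicate block, both given below. Beside the exact permutation p of 0.117 with all animals, without treated replicate 4 the log2 fold change was -2.07 (limma nominal p = 0.0195) and without control replicate 1 it was -1.94 (limma nominal p = 0.0369). In the other direction it was -1.15 without treated replicate 2, -1.20 without control replicate 5 and -1.28 without control replicate 2, with limma nominal p-values of 0.179, 0.178 and 0.163 (exact permutation p with all animals 0.117). With a pseudocount of 1 in place of 0.01 it was -0.60. TTPA is among the genes that the study itself selected on these animals, so its direction is not independent evidence. The study used the count model edgeR at a nominal p-value below 0.05 and listed TTPA as lower, with no gene passing adjustment. The lack of a call for TTPA here is thus that of the limma fits with all animals and neither the epithelium score nor the replicate block. Of the 7 liver markers found, 0 had a mean above 1 FPKM over the 12 animals, and they summed to between 0.0438 and 2.10 FPKM in control and between 0.653 and 2.49 FPKM in treated animals. APOA2 and FGA were listed at 0, and ALB reached at most 0.0375 FPKM in any animal, while AHSG had means of 0.432 and 1.00 FPKM and SERPINC1 of 0.438 and 0.480 FPKM in control and treated animals.

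The 9 genes were set beside a list of 98 genes of the same pathways. Of these, 82 were found in the table, 3 of them by RefSeq gene identifier, and 16 were not matched and are not analysed here, among them CYP26A1 and CYP26B1. In all, 43 genes were tested, the 6 tested genes above included, and 1 of them differed at a nominal p-value below 0.05, a lower one, beside the 1.24% of all tested genes. Of the 43, 23 had a higher and 20 a lower mean log2 level in the treated group, and their median log2 fold change was 0.01.

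The gene past the nominal threshold was TGM2, tissue transglutaminase, which crosslinks proteins and is a known target of retinoic acid. Control animals ranged from 1.23 to 2.52 FPKM and treated animals from 0.623 to 1.95 FPKM. The groups overlapped, with control replicate 2 below treated replicates 2, 3 and 4 and control replicate 4 below treated replicate 3. The means were 2.04 ± 0.461 and 1.19 ± 0.472 FPKM (SD, n = 6), with a log2 fold change of -0.83 (SE 0.28, limma nominal p = 0.0102, exact permutation p = 0.0173). Its adjusted p-value was 0.9997, and with the smooth muscle and fibroblast score as covariate the log2 fold change was -0.62 and the nominal p 0.0566. TGM2 is also among the genes selected by the study on these animals. In the list of retinoic acid responsive genes, RARRES2, the chemerin precursor, had means of 27.0 ± 18.0 and 36.5 ± 14.0 FPKM (SD, n = 6, exact permutation p = 0.219, limma nominal p = 0.0484 without control replicate 3) and RARRES1 of 4.88 ± 1.48 and 4.30 ± 1.33 FPKM (SD, n = 6, exact permutation p = 0.487). For RARRES2 the limma nominal p was below 0.05 in 3 of the 22 alternatives given below, with a largest value of 0.381.

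**Figure D3:**
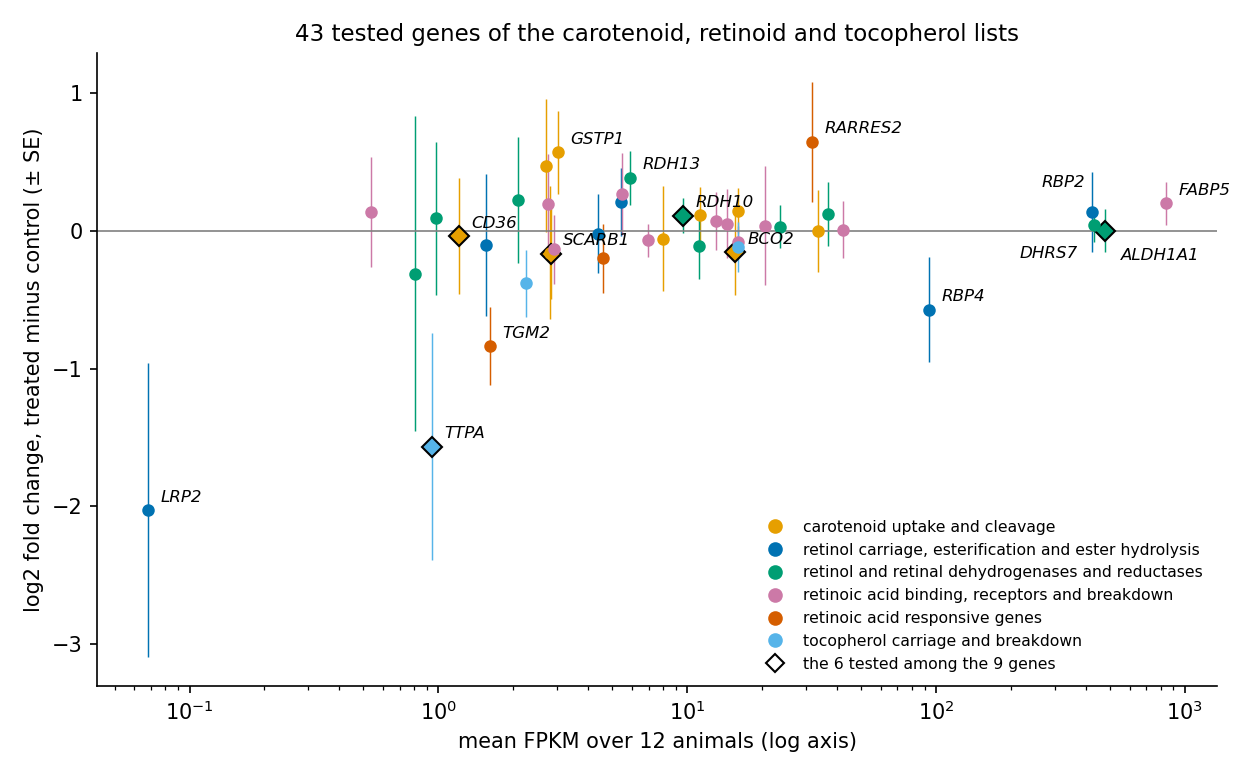
Log2 fold change with its SE against mean FPKM (log axis) for the 43 tested genes of the pathway lists, coloured by list, with diamonds for the 6 tested among the 9 genes. Most genes lie within 0.5 of 0, TGM2 stands at -0.83 with a short error bar, and TTPA and LRP2 lie lowest with long error bars.

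In the list of carotenoid uptake and cleavage, 0 of 10 tested genes passed the nominal threshold. The most abundant were LRP1, a receptor for lipoprotein remnants, at 33.3 ± 12.5 and 33.5 ± 11.4 FPKM (SD, n = 6), and SCARB2, a lysosomal relative of SCARB1, at 15.4 ± 4.01 and 16.7 ± 2.26 FPKM (SD, n = 6). GSTP1, a glutathione transferase that also binds zeaxanthin, had means of 2.51 ± 1.02 and 3.53 ± 0.940 FPKM (SD, n = 6, log2 fold change 0.57, SE 0.30, exact permutation p = 0.117), with limma nominal p-values of 0.0352 without control replicate 3 and 0.0434 without treated replicate 5. Only these 2 of the 22 alternatives given below were under 0.05 for GSTP1, and the largest limma nominal p was 0.257. APOB and MTTP, with which intestine and liver build lipoproteins, and ABCG8 were listed at 0 in all 12 animals, like ISX.

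Retinol carriers were among the most abundant transcripts of the pathway. RBP2, the cellular retinol binding protein known from small intestine, stood at 393 ± 105 FPKM in the control and 452 ± 188 FPKM in the treated group (SD, n = 6, exact permutation p = 0.682). RBP4, the secreted carrier of retinol in blood, stood at 110 ± 52.8 and 76.8 ± 34.9 FPKM (SD, n = 6, log2 fold change -0.57, SE 0.38, exact permutation p = 0.242). STRA6, the receptor for RBP4, had means of 1.65 ± 0.840 and 1.47 ± 0.842 FPKM (SD, n = 6). LRP2, megalin, which takes up RBP4 in kidney, had 0 to 52 reads, means of 0.123 ± 0.129 and 0.0135 ± 0.0210 FPKM (SD, n = 6) and an exact permutation p of 0.0779 (limma nominal p = 0.0782 with all animals, 0.0495 without control replicate 2 and 0.0243 without control replicate 3). LRP2 was below 0.05 in 3 of the 21 alternatives that held it, with a largest limma nominal p of 0.220. It passed the read filter through control animals alone, with 52 reads in control replicate 6, 41 in control replicate 1 and at most 8 in a treated animal, so these p-values support no difference, and it too was selected by the study on these animals. In this list 0 of 6 tested genes passed. TTR, transthyretin, the partner of RBP4 in blood, was below the filter with 0 to 13 reads. It had reads in 4 control animals and 1 treated animal (limma nominal p = 0.0211 on all genes above 0, exact permutation p = 0.0606). The limma p lay between 0.0505 and 0.0636 without control replicate 1, 3 or 6 or treated replicate 4. TTR was below 0.05 in 16 of the 21 alternatives that held it, with a largest limma nominal p of 0.104. With 31 reads in the control and 1 in the treated group, these p-values support no difference.

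Among retinol and retinal dehydrogenases and reductases, 0 of 10 tested genes passed, and 8 of the 10 had a higher mean log2 level in the treated group. Except for RDH13, each of these log2 fold changes was smaller than its SE, and a shift of the list was not tested. The median of the list was 0.07, beside 0.0053 over all tested genes. ALDH1A1 and DHRS7, a short-chain dehydrogenase, were the most abundant, the latter at 428 ± 63.1 and 440 ± 47.0 FPKM (SD, n = 6). DHRS3, which returns retinal to retinol and acts with RDH10, stood at 36.0 ± 11.5 and 37.3 ± 5.35 FPKM (SD, n = 6). RDH13, a mitochondrial member, had means of 5.07 ± 0.985 and 6.69 ± 1.57 FPKM (SD, n = 6, log2 fold change 0.39, SE 0.19, exact permutation p = 0.0823), with limma nominal p-values of 0.067 in all animals, 0.0494 without control replicate 2 and 0.00837 without treated replicate 6. For RDH13 only these 2 of the 22 alternatives were under 0.05, and the largest limma nominal p was 0.222. RETSAT, retinol saturase, was below the filter at 0.367 ± 0.299 and 0.440 ± 0.241 FPKM (SD, n = 6).

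For retinoic acid binding, receptors and breakdown, 0 of 11 tested genes passed. FABP5, which can carry retinoic acid as well as fatty acids, was the most abundant gene of all lists at 779 ± 123 and 904 ± 189 FPKM (SD, n = 6, log2 fold change 0.20, SE 0.16, exact permutation p = 0.197). NCOR1, a corepressor of nuclear receptors, stood at 41.4 ± 5.98 and 43.4 ± 13.6 FPKM (SD, n = 6). Among the retinoic acid receptors, RARG had means of 14.1 ± 4.43 and 14.8 ± 4.55 FPKM, RARA of 3.03 ± 0.816 and 2.82 ± 0.883 FPKM and RARB of 0.540 ± 0.339 and 0.533 ± 0.160 FPKM (SD, n = 6), and their partner RXRA of 20.1 ± 7.57 and 20.9 ± 7.83 FPKM (SD, n = 6).

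In the tocopherol list, 0 of 3 tested genes passed and all 3, TTPA, PLTP and TTPAL, had a lower mean log2 level in the treated group. With so few genes a shift of the list was not tested. PLTP, a phospholipid transfer protein that also moves vitamin E between lipoproteins, had means of 2.52 ± 0.675 and 1.96 ± 0.613 FPKM (SD, n = 6, log2 fold change -0.38, SE 0.24, exact permutation p = 0.143), and with the smooth muscle and fibroblast score as covariate its log2 fold change was -0.60 (limma nominal p = 0.0289). PLTP was below 0.05 in 2 of the 22 alternatives given below, with a largest limma nominal p of 0.283. TTPAL, a relative of TTPA of the same lipid-binding family, stood at 16.5 ± 3.32 and 15.5 ± 4.48 FPKM (SD, n = 6). SEC14L2, the tocopherol associated protein, had 1 to 13 reads at 0.0979 ± 0.0655 and 0.0929 ± 0.0619 FPKM (SD, n = 6). AFM, a plasma binder of vitamin E, was listed at 0.

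Set out by step in 10 groupings, which were made after the values were seen, the same gene was the highest of its grouping in 12 of 12 animals each time. This depends on which genes were put together. RXRA, at a mean of 20.5 FPKM, was left out of the grouping led by RARG at 14.5 FPKM. LRP1, at 33.4 FPKM, was left out of that led by SCARB2 at 16.0 FPKM. BCO2 stood at 15.6 FPKM beside 0.0167 FPKM of BCO1. ALDH1A1, at 476 FPKM, was 227 times ALDH1A3 (2.09 FPKM), and ALDH1A2 was at 0 in 6 animals with at most 23 reads. FABP5, at 842 FPKM, stood beside CRABP2 at 0.684 FPKM and CRABP1 with at most 3 reads. RARG was 4.95 times RARA and 27.0 times RARB. The acyltransferase DGAT1, which can esterify retinol when LRAT is scarce, stood at 5.40 FPKM, 23.0 times LRAT, and TTPAL, at 16.0 FPKM, was 17.0 times TTPA. Among the retinol dehydrogenases RDH14 led, at 2.45 times RDH10.

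**Figure D4:**
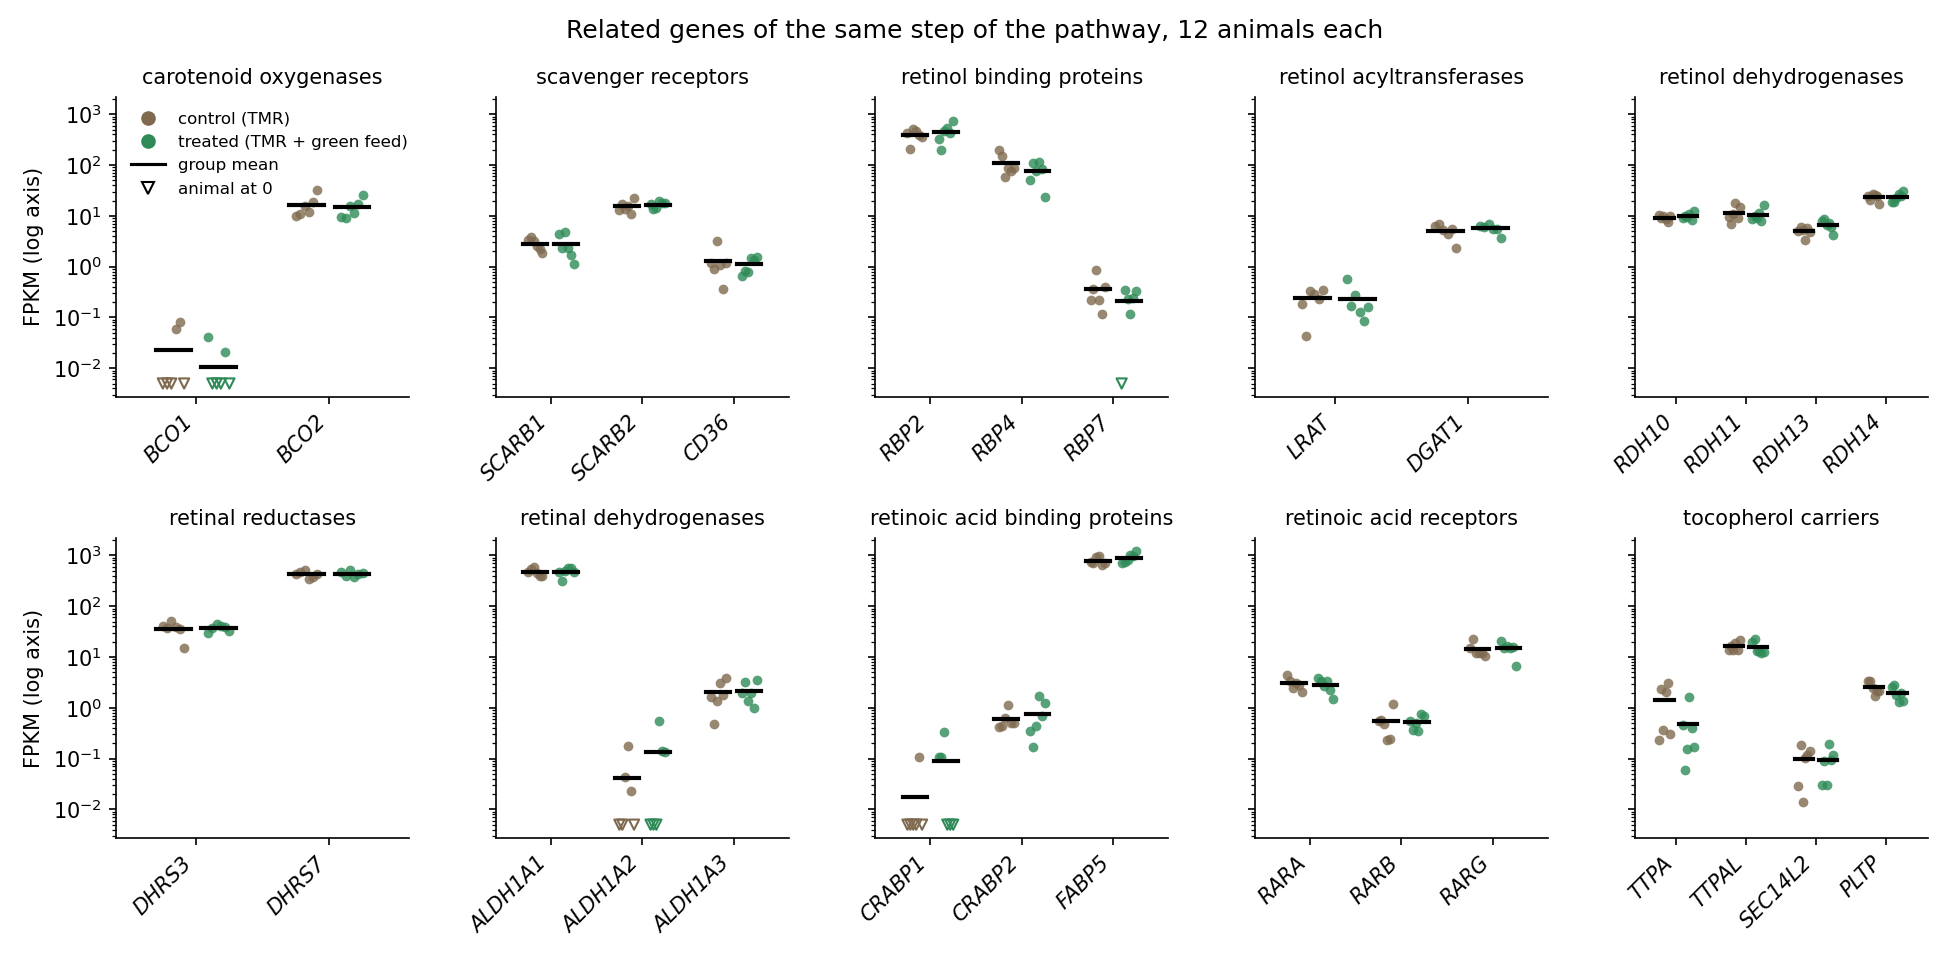
FPKM (log axis, shared by all panels) of related genes of the pathway in the 6 control (brown) and 6 treated (green) animals, with group means as bars and animals at 0 as open triangles. In each panel 1 gene lies above the others in all 12 animals, such as BCO2, RBP2, ALDH1A1 and FABP5.

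The 8 genes other than BCO1 were correlated with each other and with the 7 marker scores over the 12 animals, 84 relations in all. After adjustment 0 relations had a p-value below 0.05 by Pearson's r or by Spearman's rho (100000 permutations). By Pearson's r the closest relation among the genes was that of SCARB1 and BCO2, which ran in opposite directions. Pearson's r was -0.61 (permutation p = 0.0333, adjusted 0.426) and rho -0.62 (permutation p = 0.0369, adjusted 0.443). It was -0.63 without the 2 animals farthest from the median of SCARB1, and -0.86 within the control and -0.62 within the treated group. By rho the closest was that of CD36 and CRABP2 (rho = 0.62, permutation p = 0.0355, adjusted 0.443), for which r was 0.45 (permutation p = 0.144, adjusted 0.478), 0.75 without the 2 animals farthest from the median of CD36, 0.21 within the control and 0.84 within the treated group.

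BCO2 was lower where the ruminal epithelium score was higher (r = -0.76, permutation p = 0.00444, adjusted 0.373, rho = -0.57, permutation p = 0.0551, adjusted 0.463). Within the groups r was -0.84 and -0.70, but without the 2 animals farthest from the median score it was -0.27, so the relation rested on the animals numbered 6. CD36 followed the fibroblast score (r = 0.66, permutation p = 0.01905, adjusted 0.426, rho = 0.83, permutation p = 0.00124, adjusted 0.104), with r of 0.65 in the control group, 0.95 in the treated group and 0.68 without the 2 animals farthest from the median. This was not particular to CD36, since BCO2 (r = 0.64, rho = 0.65) and CRABP2 (r = 0.61, rho = 0.63) also followed the fibroblast score. CD36 followed the endothelium score too (r = 0.61, rho = 0.68), as did RDH10 (r = 0.60, rho = 0.64). For CD36 that r was 0.67 and 0.68 within the groups and 0.34 without the 2 farthest animals. These further relations had adjusted permutation p-values of 0.426 for r and 0.443 for rho. The fibroblast markers summed to between 46.4 and 282 FPKM in the control and between 19.8 and 184 FPKM in the treated group. The 6 fat cell markers summed to between 38.5 and 247 FPKM in control and between 45.2 and 111.5 FPKM in treated animals, nearly all of it FABP4 (means of 102 and 69.4 FPKM), which capillary endothelium also expresses. ADIPOQ and LEP were listed at 0, PLIN1 reached at most 0.0674 FPKM, CIDEC ran from 0.145 to 0.867 FPKM, and LIPE from 0.0417 to 0.358 FPKM. For TTPA and the ruminal epithelium score r was 0.43 (permutation p = 0.160, adjusted 0.493) and rho 0.50 (permutation p = 0.103, adjusted 0.534), with 0.68 and 0.59 within the groups and 0.37 without the 2 farthest animals. With this score as a covariate, which was added once the data had been seen, TTPA had a log2 fold change of -1.995 and a limma nominal p of 0.0129 (exact permutation p without it 0.117). The part of cell make-up in the differences between animals was not tested beyond these fits.

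**Figure D5:**
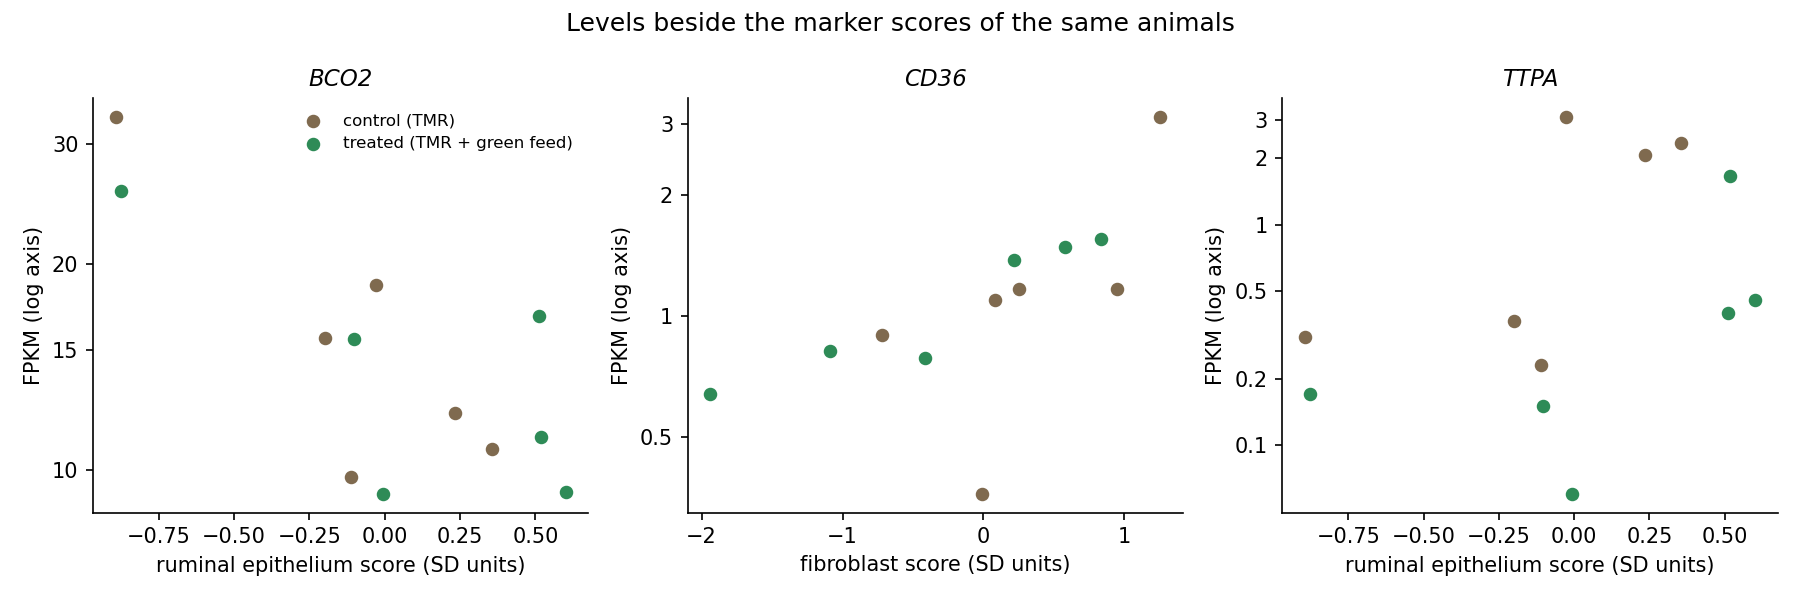
FPKM (log axis) of BCO2, CD36 and TTPA against marker scores of the same 12 animals, in units of SD, with control animals in brown and treated animals in green. BCO2 declines with the ruminal epithelium score mainly through 2 animals at the left, CD36 rises with the fibroblast score apart from 1 low control animal, and TTPA scatters widely at a given score.

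For each gene above 0 in all animals, the tested genes whose deviations from the group means were most alike were taken over the 12 animals, as a description. For TTPA they were LOC112582690 (r = 0.92), the epithelial keratin KRT13 (r = 0.88) and ZMAT2 (r = 0.83). KRT13 is also a marker in the ruminal epithelium score, so its relation to TTPA overlaps with that of the score. All markers of that score count equally, with KRT4 and LOR, near 0, among them. For BCO2 they were MOSPD1 (r = 0.95), CACNA2D1 (r = 0.93) and ABCA5 (r = 0.92), and for SCARB1 CCDC71 (r = 0.94), TFCP2L1 (r = 0.92) and CCM2 (r = 0.91). For CD36 they were the chemokine scavenger ACKR3 (r = 0.95) and TM4SF18 (r = 0.91). For RDH10 they were LOC112586693 (r = 0.93), the repressor HIC1 (r = 0.91) and ARHGAP29 (r = 0.89), and for ALDH1A1 the peroxiredoxin PRDX5 (r = 0.91), LOC102411708 (r = 0.89) and SNRNP25 (r = 0.87). For CRABP2 they were CCT3 (r = 0.91), ZNHIT3 (r = 0.91) and TAF10 (r = 0.91), and for LRAT ARAP2 (r = 0.86), SLC7A2 (r = 0.86) and EREG (r = 0.83), where CRABP2 and LRAT themselves rest on few reads. KRT13, at a mean of 1572 FPKM, had a log2 fold change of -0.19.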

How the data were processed

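Ruminal wall RNA of 12 animals was sequenced, 1 library each. Per the labels and methods, the authors trimmed the reads with Trimmomatic 0.39, aligned them to UOA_WB_1 with STAR 2.5.2b and counted fragments per gene and strand with featureCounts 2.0.0. The authors deposited FPKM, and the tool and gene lengths behind them are not given in the sources used here. Of 16 sample columns, 12 matched the labels and 4 were not used.

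The FPKM of a gene were whole multiples of 1 read within 0.01 for 100% of values, which gave the reads. The filter was the study's minimum of TMM-scaled reads in at least 1 animal. limma 3.58.1 (R 4.3.3, trended eBayes) was run on log2(FPKM + 0.01) with Benjamini-Hochberg adjustment, so fold changes of genes with few reads depend on the added 0.01, and single genes were also tested over the 924 assignments of animals (smallest possible p 0.00216). Floors of 3 reads cover counting error only. Python 3.11.15, numpy 2.4.6, pandas 2.3.3, scipy 1.17.1 and matplotlib 3.10.9 were used for the rest. The fit was also run on simulated data, and the outcome is not quoted here.

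Nothing in the labels says how animals of the groups correspond. The 9 genes and the lists were chosen with earlier results of these data known. Named were the 9 genes, list genes with a nominal p-value below 0.05, the 2 most abundant genes of each list, listed genes by role, and the 3 genes most alike, of which some are not reported here. DGAT1, RDH13, RDH14, GSTP1, ALDH1A2, LRP2, TTR, RARRES1, RARRES2, APOB, MTTP, ABCG8 and AFM were chosen after their values were seen. Alternatives were pseudocounts of 0.1 and 1, no filter, at least 0.1 FPKM in 6 animals, TMM and median-ratio scaling, voom, the replicate number as a block, marker scores as covariates and each animal left out. No sequences are printed, since none were used here, and no positions, since the annotation at hand is of another assembly.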

Additional observations from a re-analysis of the deposited data

Results flagged for a closer look

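In 4 of the 34 groups of 6 animals examined, the highest animal stood apart from the others by Dixon's criterion on FPKM. The criterion is set for about 1 of 20 groups of normally distributed values. FPKM of genes with few reads are not so distributed, so the 4 are not read as an excess. CD36 was at 3.13 FPKM in control replicate 3, with the next control animal at 1.17 FPKM. CRABP2 was at 1.14 FPKM in control replicate 4, with the next at 0.640 FPKM, on 14 and 8 reads. TTPA was at 1.66 FPKM in treated replicate 4, with the next treated animal at 0.456 FPKM, while 3 control animals lay higher still. TTR was at 0.122 FPKM in treated replicate 3, which is 1 read, with the other 5 treated animals at 0.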

How the results depend on the processing

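The 0 adjusted calls held under all 22 alternatives. RDH10 stayed higher (log2 fold change 0.05 to 0.19) and TTPA lower (-2.07 to -0.60) in all of them. Genes with a nominal p-value below 0.05 numbered 562 without a filter, 301 with 0.1 FPKM in 6 animals, 339 with the smooth muscle and fibroblast score and 290 with the epithelium score, and 142 to 325 on leaving out 1 animal, beside 157. Of the 9 genes, 1 (TTPA) was called with the epithelium score, and 0 to 1 on leaving out 1 animal. Without a filter, 3 of the 64 pathway genes above 0 were called (TGM2, TTR and LRP2), beside 562 of all 22972. Of the 43 tested pathway genes, 3 were called with the smooth muscle and fibroblast score (RARRES2, FABP5 and PLTP), beside 339 of all 12642. With the epithelium score 4 of the 43 were called (RARRES2, TGM2, ABCG1 and TTPA), beside 290 of all 12642. On leaving out 1 animal 1 to 4 of the 43 were called, beside 1 with all animals. The cause was not tested.

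Small differences changed sign. With the smooth muscle and fibroblast score the log2 fold change was 0.46 for CD36 and 0.15 for BCO2. With the epithelium score it was 0.037 for CD36, 0.042 for BCO2, 0.031 for LRAT and -0.039 for ALDH1A1, and with median-ratio scaling -0.00086 for ALDH1A1. On leaving out 1 animal it ran from -0.36 to 0.066 for SCARB1, -0.35 to 0.27 for CD36, -0.67 to 0.11 for BCO1, -0.33 to 0.070 for BCO2, -0.46 to 0.15 for LRAT, -0.050 to 0.11 for ALDH1A1 and -0.27 to 0.38 for CRABP2. BCO1 had no value with 0.1 FPKM in 6 animals, since it did not pass that filter.

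The sample descriptions number the animals of both groups 1 to 6, but the sample titles and table columns number several of them otherwise, so the block and the pairs below rest on 1 of 2 numberings. Over the tested genes, deviations of same-numbered animals correlated at -0.01 to 0.42, above 0.1 in 4 of 6 pairs, and 4 of 6 animals correlated best with their own number, a hint from the data and not from the design. With the replicate number as a block, 322 of the 12642 tested genes had a nominal p-value below 0.05. Among them was 1 of the 9 genes (TTPA, limma nominal p = 0.0493 beside an exact permutation p of 0.117 without the block). Of the 43 tested pathway genes, 3 were among them (TGM2, PLTP and TTPA, with a limma nominal p of 0.0333 for PLTP beside an exact permutation p of 0.143 without the block). BCO2 of same-numbered animals correlated at 0.99 and was lower in the treated animal of 6 of 6 pairs, by a mean log2 of 0.15 (limma block p = 0.121). It was picked as the highest of the 9 genes in this correlation, which was -0.43 for ALDH1A1. The smallest log2 difference of a BCO2 pair was -0.0057. How many of all genes were lower in 6 of 6 pairs was not counted, so no paired difference is read from this. Few reads limit BCO1, LRAT, CRABP2, TTR and LRP2.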
